A study of Homo sapiens with 8 samples.

Results

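RBBP4, RBBP7 and their best-known partners in the histone-modifying complexes PRC2 and NuRD form a set of 9 genes: RBBP4, RBBP7, EZH2, SUZ12, EED, HDAC1, HDAC2, MTA2 and CHD4. Members were found by gene symbol, and the set was drawn up because RBBP4 had fewer ribosome footprints with the hairpin shNBD1. Of the 9 named genes, 7 had a row in the count files and passed the filter on low counts, among 13306 genes tested. HDAC2 and CHD4 were not analysed here. RBBP4 values in the hairpin comparison are therefore a description with no test, whereas the partners were named for their complexes. All members were, however, chosen with earlier results of these data known.

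Ribosome profiling sequences the mRNA stretches that ribosomes protect, and it was run on 293T cells, a human embryonic kidney line with the SV40 large T antigen. The groups were cells with the non-cleaving hairpin shNBD1, cells with the control for shRNA, cells with miRNA inhibitors and cells with the negative control for inhibitors, with 2 libraries in each of the 4 groups. Lysis was in polysome buffer with cycloheximide at 100 μg/ml in all groups, and total counts per library ran from 11218980 to 19854218. Whether the replicates came from separate cultures is not in the labels. The p-values therefore rest on library-to-library spread that could be purely technical. Replicate libraries differed by more than sampling noise in every group, where chi-square over its degrees of freedom was 2.77 with shNBD1, 1.42 in the shRNA control, 21.1 with the inhibitors and 14.4 in the inhibitor control. The NBD1 reporter row stood at 7040 and 7233 CPM (counts scaled to a common library size) with shNBD1, against 9129 and 9082 CPM in the shRNA control. It had 8339 and 7954 CPM in the inhibitor control and 8212 and 7747 CPM with the inhibitors, also below the shRNA control. Of the 6 genes chosen as marks of 293T cells, VIM, LIN28B, PAX2 and NEFM had counts in every library, while LHX1 and NEFL were not analysed here. VIM had 3063 to 6172 CPM and LIN28B 6.71 to 19.9 CPM, but PAX2 had 1.89 to 3.44 CPM and NEFM 0.924 to 1.66 CPM. Marks of other cell types also had counts in every library at such low levels. The glial GFAP had 0.460 to 1.89 CPM, the endothelial PECAM1 0.680 to 2.27 CPM and the erythroid HBA1 at most 3.36 CPM. PAX2 and NEFM therefore do not set 293T cells apart here. The leukocyte genes PTPRC and CD3E, the liver gene ALB and the muscle gene MYOD1 reached at most 2 counts. The endothelial CDH5 reached at most 5 counts and the liver gene APOA1 at most 6. In contrast, the fibroblast and muscle markers ACTA2 and COL1A1 had 291 to 532 CPM and 24.2 to 61.0 CPM, and the leukocyte gene CD68 10.6 to 38.5 CPM.

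RBBP4 and its close paralog RBBP7 are WD-repeat proteins that hold histones for larger machines. Both sit in PRC2, which methylates histone H3 on a lysine to keep genes silent, and in NuRD and SIN3, which remove acetyl groups from histones. RBBP4 is also a subunit of the histone chaperone CAF-1 and of the cell-cycle complex MuvB, while RBBP7 is the partner of the acetyltransferase HAT1. A footprint count rises or falls with mRNA abundance and with translation per mRNA, and these cannot be told apart here.

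RBBP4 (ENSG00000162521, chromosome 1, 32651208 to 32686211, GRCh38.p14) had 231 and 230 CPM in the shNBD1 libraries, against 524 and 521 CPM in the shRNA control. The groups stood far apart, and the replicates within each lay within 3 CPM of each other. The log2 fold change was -1.18 ± 0.08 (SE), a drop of 55.8%. Of the 13306 genes tested, 161 had a lower log2 fold change. These are the values for which the gene was chosen. The counts behind them were 3245 and 3386 with shNBD1 and 7884 and 6360 in the control.

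RBBP7 (ENSG00000102054, chromosome X, 16844341 to 16870362) did not show a drop of that size. It had 825 and 788 CPM with shNBD1, against 918 and 893 CPM in the shRNA control. Both shNBD1 libraries lay below both controls, yet the log2 fold change of -0.17 ± 0.09 did not pass the threshold of 0.05 on the adjusted p (adjusted p = 0.197, edgeR quasi-likelihood test). Its 95% interval ran from -0.36 to 0.02, so a change as large as that of RBBP4 lies outside it. On the 4 libraries of this comparison alone RBBP7 passed at -0.16 ± 0.04 (adjusted p = 0.000993, edgeR), in a fit that called 41.9% of all genes. The main fit shares 1 estimate of the spread per gene over all 8 libraries. Replicates differed more in the inhibitor arm, so the SE of the hairpin comparison also carries the spread of that arm.

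**Figure D1:**
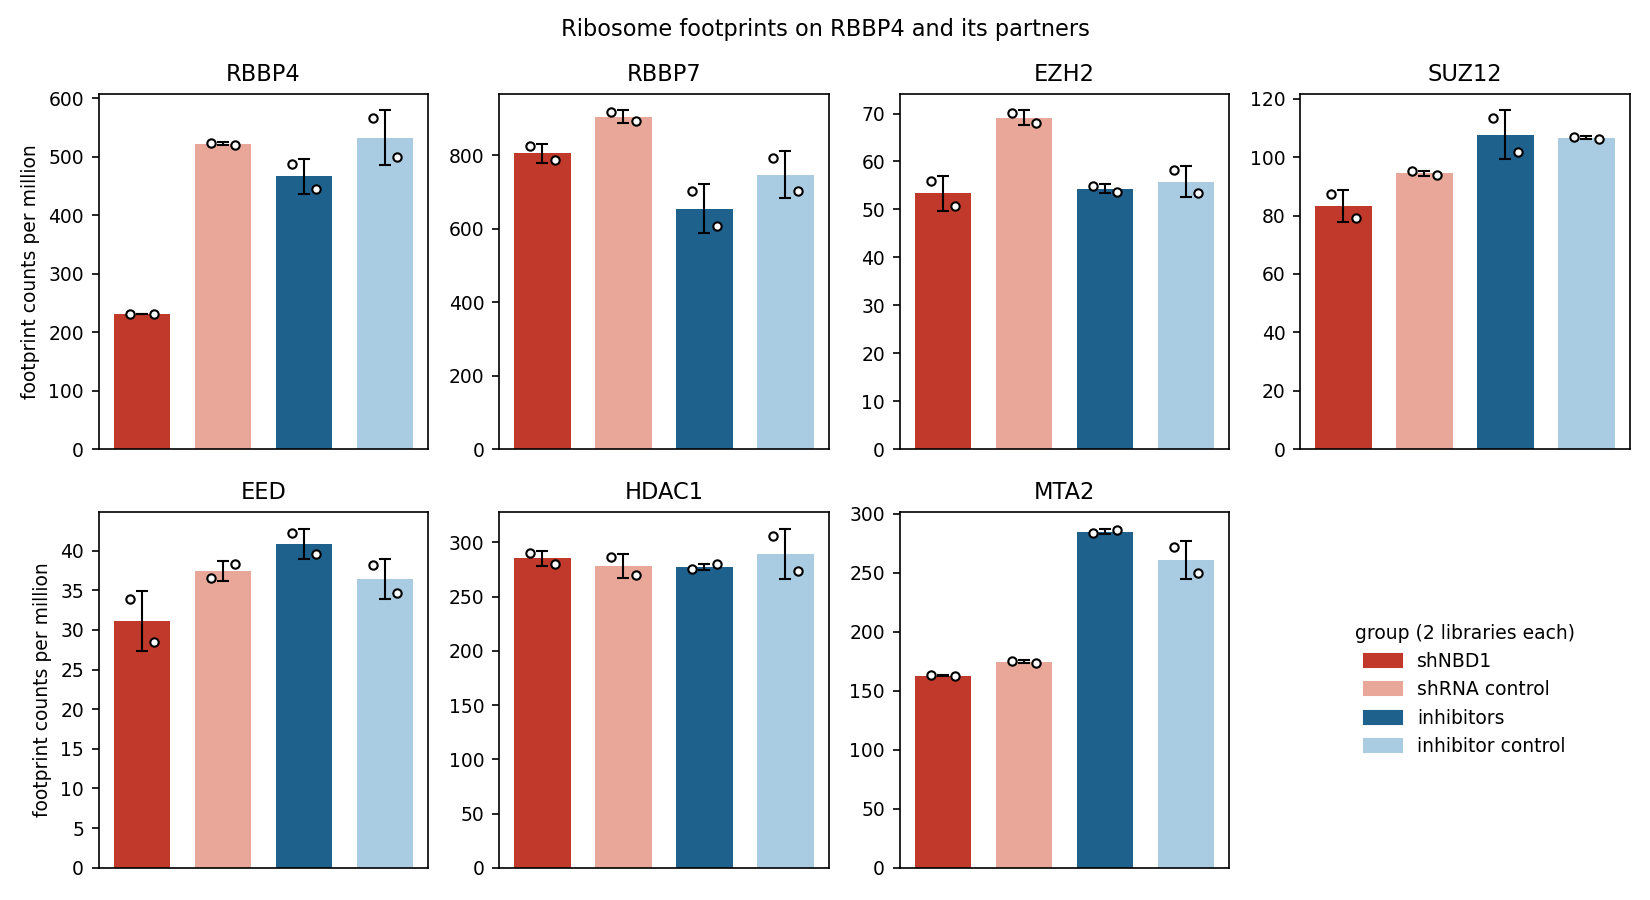
Footprint levels in CPM on a linear axis from 0 for the 7 members analysed. Bars are group means of 2 libraries, whiskers are the SD and circles are the libraries; RBBP4 was near 230.6 CPM in both shNBD1 libraries, while MTA2 separated the shRNA arm from the inhibitor arm.

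The balance within the pair differed between the same groups. RBBP4 took 21.9% of the summed RBBP4 and RBBP7 counts in shNBD1 replicate 1 (95% exact binomial interval 21.2% to 22.5%) and 22.6% in replicate 2 (22.0% to 23.3%). In the shRNA control it took 36.3% (35.7% to 37.0%) and 36.8% (36.1% to 37.5%). The intervals cover counting error only. The number of RBBP4 counts per RBBP7 count was 0.286 ± 0.009 with shNBD1 and 0.577 ± 0.009 in the shRNA control (SD, n = 2 each), a log2 difference of -1.01. This ratio does not depend on how libraries are scaled, but it carries the value on which RBBP4 was chosen. With 2 libraries against 2 the smallest exact two-sided permutation p is 0.333, so no test was made. The summed level of the pair was 1037 ± 26.5 CPM with shNBD1 and 1428 ± 19.3 CPM in the shRNA control, a difference of -27.4%. Counts are not per coding length, so these shares say nothing about which paralog is the more abundant.

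**Figure D2:**
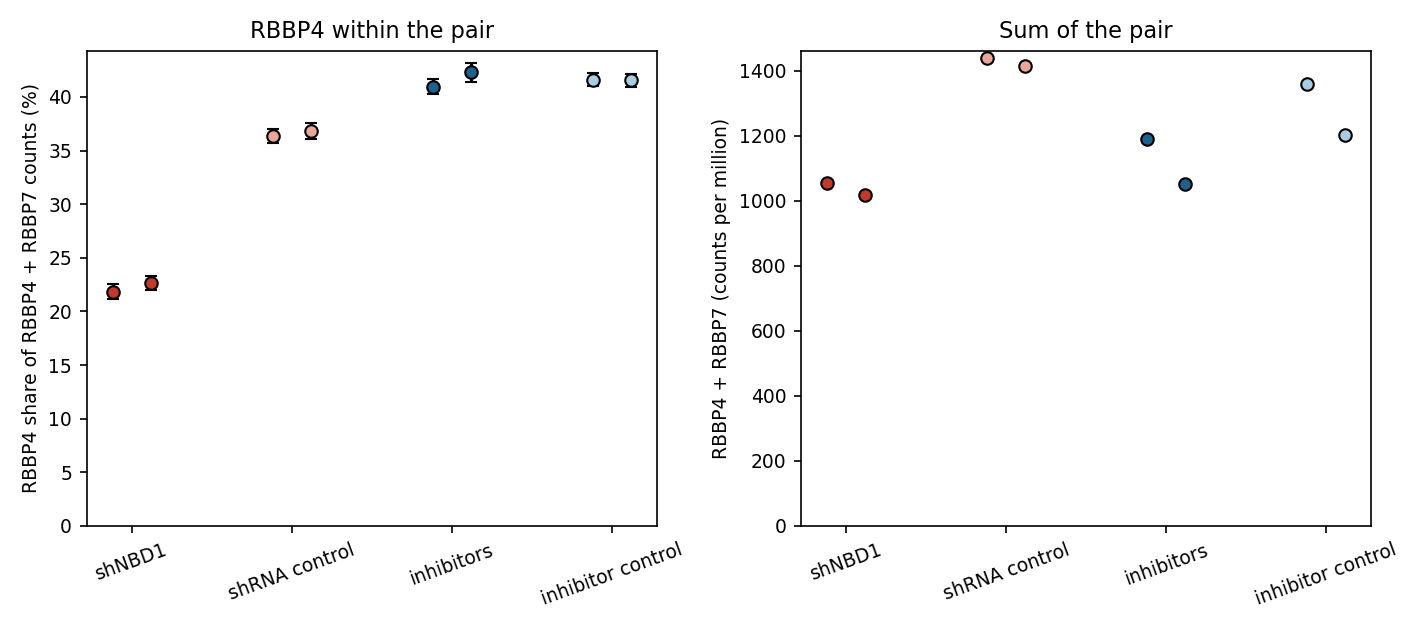
Left, the RBBP4 share of RBBP4 plus RBBP7 counts in each library in percent, with exact 95% binomial intervals; right, the summed CPM of both genes. Shares lay at 21.9% and 22.6% with shNBD1 and between 36.3% and 42.3% in the other 6 libraries.

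Reads from related sequences limit how exactly the paralogs can be separated. The RefSeq table for GRCh38.p14 holds 7 RBBP4 pseudogenes, and 0 of them have a row of their own in the count files. How reads that match several genes were assigned is not given in the sources used here, so any exchange of reads between RBBP4, RBBP7 and these copies was not tested.

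The 250 bases before the annotated start of RBBP4, RBBP7 and EZH2 are shown because the first is the gene of the drop, the second its paralog and the third the only partner to pass the test. They are RefSeq sequences of GRCh38.p14, written in the direction of transcription, at chr1:32650958-32651207 on the plus strand, chrX:16870363-16870612 on the minus strand and chr7:148884292-148884541 on the minus strand. Capitals mark CCAAT boxes, searched as CCAAT on both strands.
RBBP4: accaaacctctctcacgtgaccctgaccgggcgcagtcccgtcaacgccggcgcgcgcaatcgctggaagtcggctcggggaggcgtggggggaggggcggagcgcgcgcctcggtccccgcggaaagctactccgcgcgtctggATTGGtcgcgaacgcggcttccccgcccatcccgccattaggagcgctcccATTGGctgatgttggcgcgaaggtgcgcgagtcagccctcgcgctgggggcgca
RBBP7: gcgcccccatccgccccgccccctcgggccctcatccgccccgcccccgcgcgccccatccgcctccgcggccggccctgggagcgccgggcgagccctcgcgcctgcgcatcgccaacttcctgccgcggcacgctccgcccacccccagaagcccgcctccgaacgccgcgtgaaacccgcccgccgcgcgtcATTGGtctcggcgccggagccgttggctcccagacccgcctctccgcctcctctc
EZH2: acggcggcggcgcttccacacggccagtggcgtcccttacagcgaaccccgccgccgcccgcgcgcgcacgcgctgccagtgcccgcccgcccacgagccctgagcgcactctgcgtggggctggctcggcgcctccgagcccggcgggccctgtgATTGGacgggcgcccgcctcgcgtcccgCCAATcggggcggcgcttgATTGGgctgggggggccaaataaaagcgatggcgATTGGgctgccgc
RBBP4 held 2 matches, RBBP7 held 1 and EZH2 held 4. Of all 35116 windows of this length in the table, 32% held at least 1, as did those of 6 of the 7 members, MTA2 being the exception. The E2F letters TTTGGCGC, TTTCCCGC, TTTGCCGC and TTTCGCGC, also searched on both strands, were found in 2.79% of all windows and in 1 member, SUZ12, at no base shared with its CCAAT box. A match of letters is not a site in use, and footprint counts do not measure promoters.

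The PRC2 core showed smaller differences than RBBP4. EZH2, its methyltransferase (ENSG00000106462, chromosome 7, 148807383 to 148884291), had 55.9 and 50.8 CPM with shNBD1, against 70.2 and 68.0 CPM in the shRNA control. The groups did not overlap, and EZH2 fell by 0.37 ± 0.08 on the log2 scale, or 22.9% (adjusted p = 0.0105, edgeR). It was the 1 of 6 partners called, in a comparison that called 18.3% of all genes tested, 9.15% as lower, so the share of partners called stood near this background. The call was lost without shRNA control replicate 1 (adjusted p = 0.125), shRNA control replicate 2 (0.0749) or shNBD1 replicate 2 (0.144), where the log2 fold change ran from -0.39 to -0.30. The shRNA control was itself the group with the highest EZH2 level: the inhibitors stood at 54.9 and 53.6 CPM and their control at 58.1 and 53.5 CPM, close to the shNBD1 libraries.

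SUZ12, the subunit that holds PRC2 together (ENSG00000178691, chromosome 17), had 87.3 and 79.3 CPM with shNBD1, against 95.1 and 93.8 CPM in the shRNA control. EED, which reads the methyl mark (ENSG00000074266, chromosome 11), had 33.8 and 28.4 CPM with shNBD1, against 36.6 and 38.3 CPM. Both genes had their shNBD1 libraries below both controls without passing the test, at -0.18 ± 0.08 for SUZ12 (adjusted p = 0.135, edgeR) and -0.27 ± 0.10 for EED (adjusted p = 0.103). On the 4 libraries of this comparison alone both passed, at adjusted p = 0.0126 for SUZ12 and 0.0129 for EED, in that same fit with 41.9% of all genes called. EED was the member with the fewest counts, 418 to 747 per library, and its shNBD1 replicates differed most, with an SD of 0.18 on the log2 scale. Without shNBD1 replicate 1 its log2 fold change was -0.40, and without shNBD1 replicate 2 it was -0.14.

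HDAC1 and MTA2 had the smallest log2 fold changes of the members, which were not tested against those of the others. HDAC1, the deacetylase shared by NuRD and SIN3 (ENSG00000116478, chromosome 1), had 290 and 280 CPM with shNBD1, against 286 and 270.4 CPM in the shRNA control, and the groups overlapped. Its log2 fold change was 0.04 ± 0.07 (adjusted p = 0.771, edgeR), with a 95% interval from -0.13 to 0.20. MTA2, a scaffold of NuRD (ENSG00000149480, chromosome 11), had 163 and 162 CPM with shNBD1, against 175 and 174 CPM. Replicates lay within 2 CPM of each other and the groups did not overlap, at -0.10 ± 0.07 (adjusted p = 0.327). Its interval ran from -0.25 to 0.05.

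For the 6 partners together the median log2 fold change with shNBD1 was -0.17, beside 0.00 over all genes tested, and 5 of them had both shNBD1 libraries below both controls. Of all genes tested, 34.3% did so, 34.7% had both shNBD1 libraries above both controls, and the groups of 69% did not overlap in either direction. An unadjusted p under 0.05 was reached by 3 partners and by 33.2% of all genes.

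**Figure D3:**
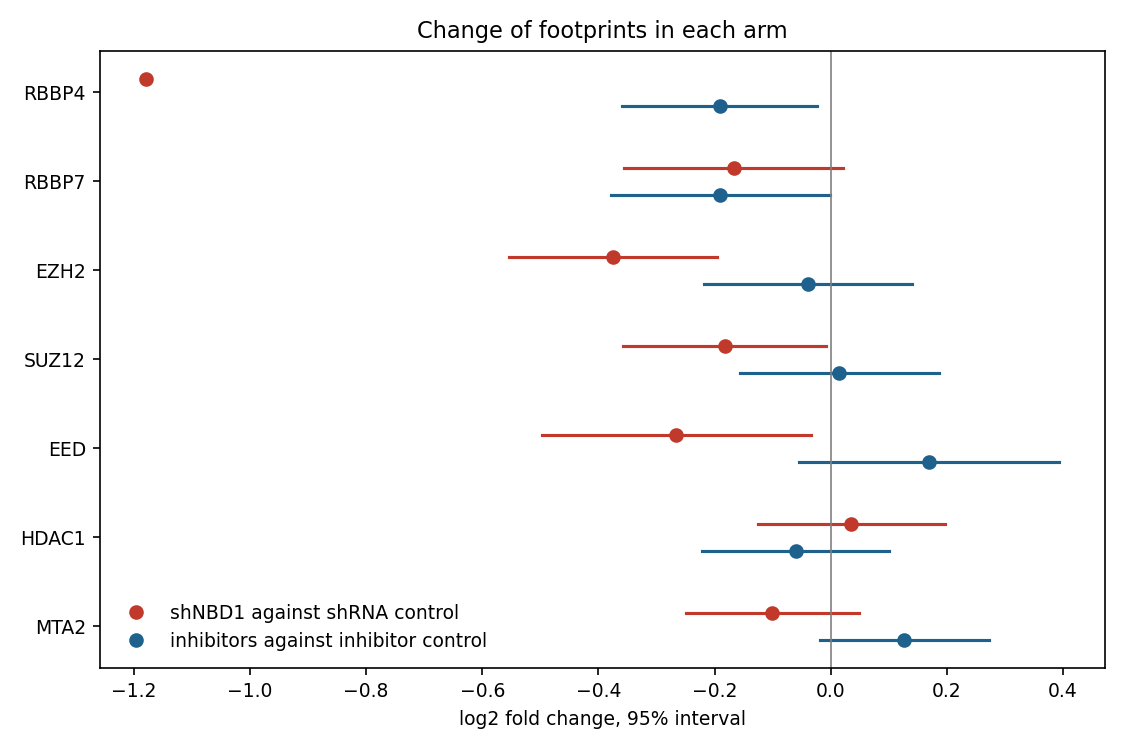
Log2 fold changes of the 7 members with 95% intervals from the edgeR fit, for shNBD1 against the shRNA control and inhibitors against their control; RBBP4 with shNBD1 is drawn without an interval since it was chosen on that value. RBBP4 sits at -1.18 with shNBD1, and all other points lie between -0.37 and 0.17.

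With the miRNA inhibitors none of the 7 members passed the test (0 of 7, in a comparison that called 0.12% of all genes, 0.0376% as higher and 0.0827% as lower, edgeR), DESeq2 called 0, and 2 had an unadjusted p under 0.05, RBBP4 and RBBP7, as did 16.4% of all genes. RBBP4 had 487 and 445 CPM with the inhibitors, against 565 and 499 CPM in their control. The groups did not overlap, as for 40.8% of all genes, 20.3% with the inhibitors lower and 20.5% with them higher, but each spread widely, and the log2 fold change was -0.19 ± 0.08 (adjusted p = 0.253). RBBP7 had 703 and 607 CPM with the inhibitors, against 793 and 702 CPM, groups that overlap in range, at -0.19 ± 0.09 (adjusted p = 0.298). In both groups replicate 2 was the lower library for each paralog. The RBBP4 value ran from -0.28 without inhibitor control replicate 2 to -0.10 without inhibitor control replicate 1. That of RBBP7 ran from -0.31 without inhibitors replicate 1 to -0.10 without inhibitors replicate 2. On the 4 libraries of the inhibitor comparison alone the SE was larger, at 0.105 for RBBP4 and 0.114 for RBBP7. The ratio of the pair was 0.713 ± 0.028 with the inhibitors and 0.712 ± 0.001 in their control (SD, n = 2 each), a log2 difference of 0.00.

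The other members differed little from the inhibitor control. EZH2 stood at -0.04 ± 0.08, SUZ12 at 0.01 ± 0.08 and HDAC1 at -0.06 ± 0.07, with overlapping groups. EED had 42.2 and 39.5 CPM with the inhibitors, against 38.2 and 34.6 CPM, at 0.17 ± 0.10 (adjusted p = 0.425). MTA2 had 283 and 286 CPM, against 272 and 249 CPM, at 0.13 ± 0.07 (adjusted p = 0.363). Neither gene's groups overlapped. The median over the 6 partners was -0.01, beside 0.01 over all genes.

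The difference between the hairpin and inhibitor effects was tested for the 6 partners, and 0 passed, in a comparison that called 7.44% of all genes, 3.48% as higher and 3.96% as lower (edgeR; DESeq2 also 0; 3 with an unadjusted p under 0.05, as had 24.5% of all genes). EZH2 stood at -0.34 ± 0.11 (adjusted p = 0.102), EED at -0.43 ± 0.15 (0.0964), MTA2 at -0.23 ± 0.09 (0.167) and RBBP7 at 0.02 ± 0.12 (0.936). For RBBP4 the difference was -0.99 ± 0.11, given with no test.

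The baselines of the arms differed for some members. MTA2 was lower in the shRNA control than in the inhibitor control, at 175 and 174 CPM against 272 and 249 CPM, a log2 difference of -0.58 ± 0.07 (adjusted p = 0.000276, edgeR) that passed under all 16 alternatives tried. EZH2 was higher in the shRNA control by 0.31 ± 0.08 (adjusted p = 0.017) and RBBP7 by 0.28 ± 0.09 (adjusted p = 0.0354). EZH2 did not pass without shRNA control replicate 1, shRNA control replicate 2 or inhibitor control replicate 2, at adjusted p from 0.0717 to 0.15, and RBBP7 did not pass under 6 of 16 alternatives, at up to 0.211. These 3 of 6 partners were called, 2 as higher and 1 as lower, where 27.1% of all genes were, 13.5% as higher and 13.6% as lower. Groups did not overlap for 4 of 6, EZH2 and RBBP7 higher and MTA2 and SUZ12 lower, beside 67.1% of all genes, 33.7% higher and 33.4% lower. What was done to the cells in each arm and the effect of the arm's libraries cannot be told apart. RBBP4, given with no test, averaged 522 ± 2.09 CPM among shRNA controls and 532 ± 46.7 CPM among inhibitor controls (SD, n = 2 each). This comparison and the hairpin comparison share the shRNA control libraries.

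Across the 8 libraries the 5 genes with profiles nearest to RBBP4, by Euclidean distance between centred log2 CPM values among the 10909 genes averaging 50 counts or more, were ZNF460, ATP6V1E1, SCD5, CA2 and IQGAP2. Their distances ran from 0.172 to 0.257 and Pearson r from 0.984 to 0.993 over 8 libraries that fall into 4 groups, so r mainly reflects the shNBD1 pair. ZNF460, a zinc-finger protein, had 43.6 and 41.1 CPM with shNBD1, against 104 and 95.7 CPM in the shRNA control. ATP6V1E1, of the vacuolar proton pump, had 99.5 and 96.0 CPM, against 211 and 216 CPM. None of the 6 partners was among the 5 nearest. The distance contains the drop for which RBBP4 was chosen, so genes with smaller changes could hardly lie near it. The ranks of the partners are therefore a description and add nothing to the changes given above. By distance SUZ12 ranked 912 (r = 0.80), EED 1027 (r = 0.75), MTA2 1324 (r = 0.59) and EZH2 2121 (r = 0.50). HDAC1 ranked 4340 (r = -0.04) and RBBP7 5768 (r = -0.05). Their distances ran from 1.09 for SUZ12 to 1.53 for RBBP7.

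**Figure D4:**
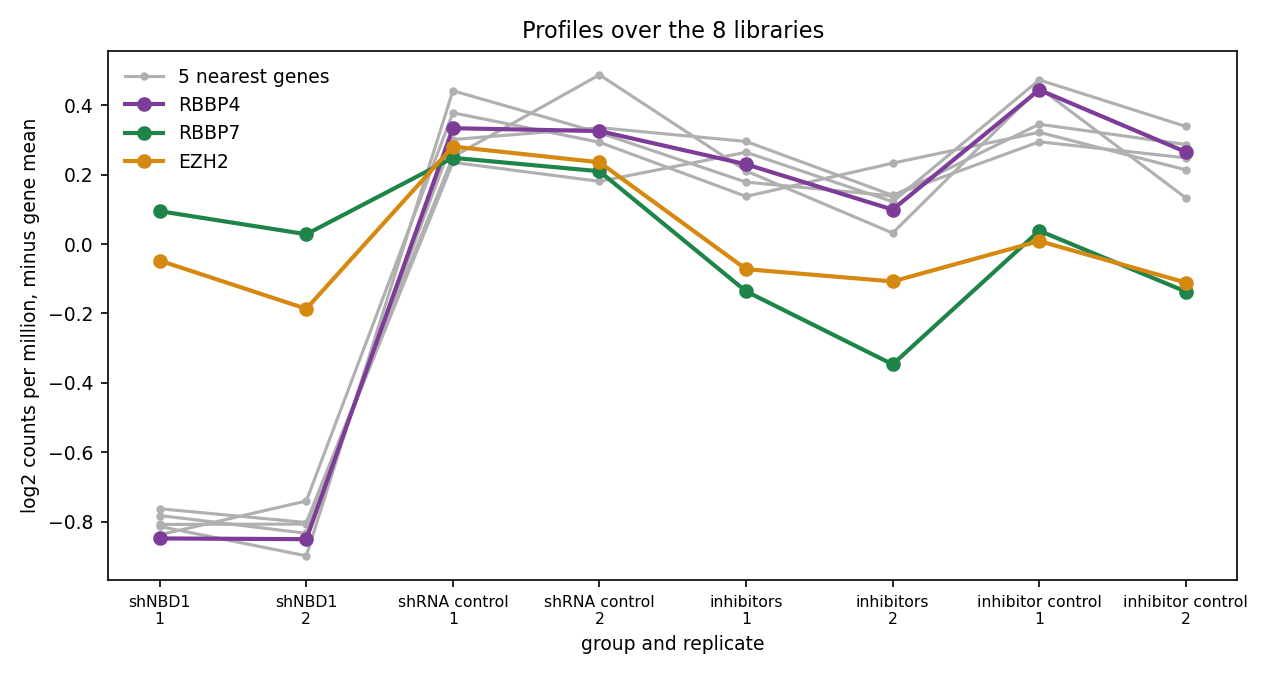
Log2 CPM of each gene minus its mean over the 8 libraries, for RBBP4, RBBP7, EZH2 and the 5 genes nearest to RBBP4 (grey). RBBP4 and the grey lines are lowest in the 2 shNBD1 libraries, whereas RBBP7 and EZH2 are highest in the shRNA control.

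Beyond the members, 93 genes of related complexes were listed and 84 tested. With shNBD1 6 rose and 11 fell, 20.2% of them, beside 18.3% of all genes (9.18% as higher and 9.15% as lower). Their median log2 fold change was -0.02. The counts of single lists given below are to be read beside the same shares of all genes. Without any single library of the comparison 15 or 16 of the 17 calls were lost, in fits that called 3.92% to 7.52% of all genes, and DESeq2 kept 9. HAT1 was the 1 gene called under all 16 alternatives.

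Among CAF-1 and other chaperones of histones H3 and H4, 3 of 8 fell and 0 rose, with a median of -0.01. HAT1, which acetylates new histone H4 with RBBP7, had 186 and 173 CPM with shNBD1, against 251 and 248 CPM in the shRNA control, which is -0.48 ± 0.07 on the log2 scale (edgeR, adjusted p = 0.00227). CHAF1B, the CAF-1 subunit beside RBBP4, had 146 and 138 CPM, against 180 and 178 CPM, at -0.34 ± 0.08 (adjusted p = 0.0124). ASF1A, which hands histones to CAF-1, fell by 0.34 ± 0.08, while the large CAF-1 subunit CHAF1A stood at 0.07 ± 0.07 (adjusted p = 0.53). HAT1 had 151 to 169 CPM in the 4 libraries of the inhibitor arm, below the shNBD1 libraries.

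Of 7 tested PRC2 accessory subunits and EZH1, 1 rose and 1 fell, with a median of -0.12. PHF19, which guides PRC2 to chromatin, rose by 0.39 ± 0.10, with 26.5 and 28.0 CPM, against 20.6 and 21.1 CPM. It had 26.4 to 30.0 CPM in the inhibitor arm, so the shRNA control was its lowest group. LCOR, whose locus also encodes a PRC2 cofactor, fell by 0.50 ± 0.11. EZH1, the paralog of EZH2, stood at -0.19 ± 0.12 (adjusted p = 0.301, edgeR). Both demethylases that remove the PRC2 mark passed in opposite directions: KDM6B rose by 0.52 ± 0.14, with 12.7 and 14.8 CPM, against 9.43 and 9.74 CPM, and KDM6A fell by 0.39 ± 0.08, with 65.9 and 64.0 CPM, against 84.2 and 86.1 CPM.

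Among other NuRD subunits 1 of 8 rose, the scaffold MTA1, by 0.28 ± 0.08, and the list's median was 0.08. In the SIN3 complex 1 of 12 rose, the scaffold SIN3B, by 0.30 ± 0.08, and 2 fell, SAP30 by 0.39 ± 0.11 and ARID4A by 0.39 ± 0.11. None of 11 MuvB and DREAM genes passed (edgeR; 5 with an unadjusted p under 0.05; DESeq2 0), and the smallest p belonged to TFDP1, an E2F partner, at 0.23 ± 0.07 (adjusted p = 0.0563), which passed under 6 of 16 alternatives. In the NURF list SMARCA5, a chromatin-remodelling ATPase, fell by 0.29 ± 0.07, the 1 call among 4. SMARCA1, on the same list, stood at -0.27 ± 0.17 (adjusted p = 0.287, edgeR). Of 4 RB and E2F genes E2F3 fell by 0.39 ± 0.09. In the list that holds the deacetylase complexes CoREST and MiDAC, with 13 genes tested and a median of 0.06, MIDEAS, a MiDAC scaffold, rose by 0.44 ± 0.12. In PRC1 2 of 15 fell, BMI1 by 0.50 ± 0.11 and CBX6 by 0.43 ± 0.14. BMI1 had 30.9 and 31.4 CPM with shNBD1, against 45.1 and 43.1 CPM in the shRNA control, and 20.5 to 25.7 CPM in the inhibitor arm.

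**Figure D5:**
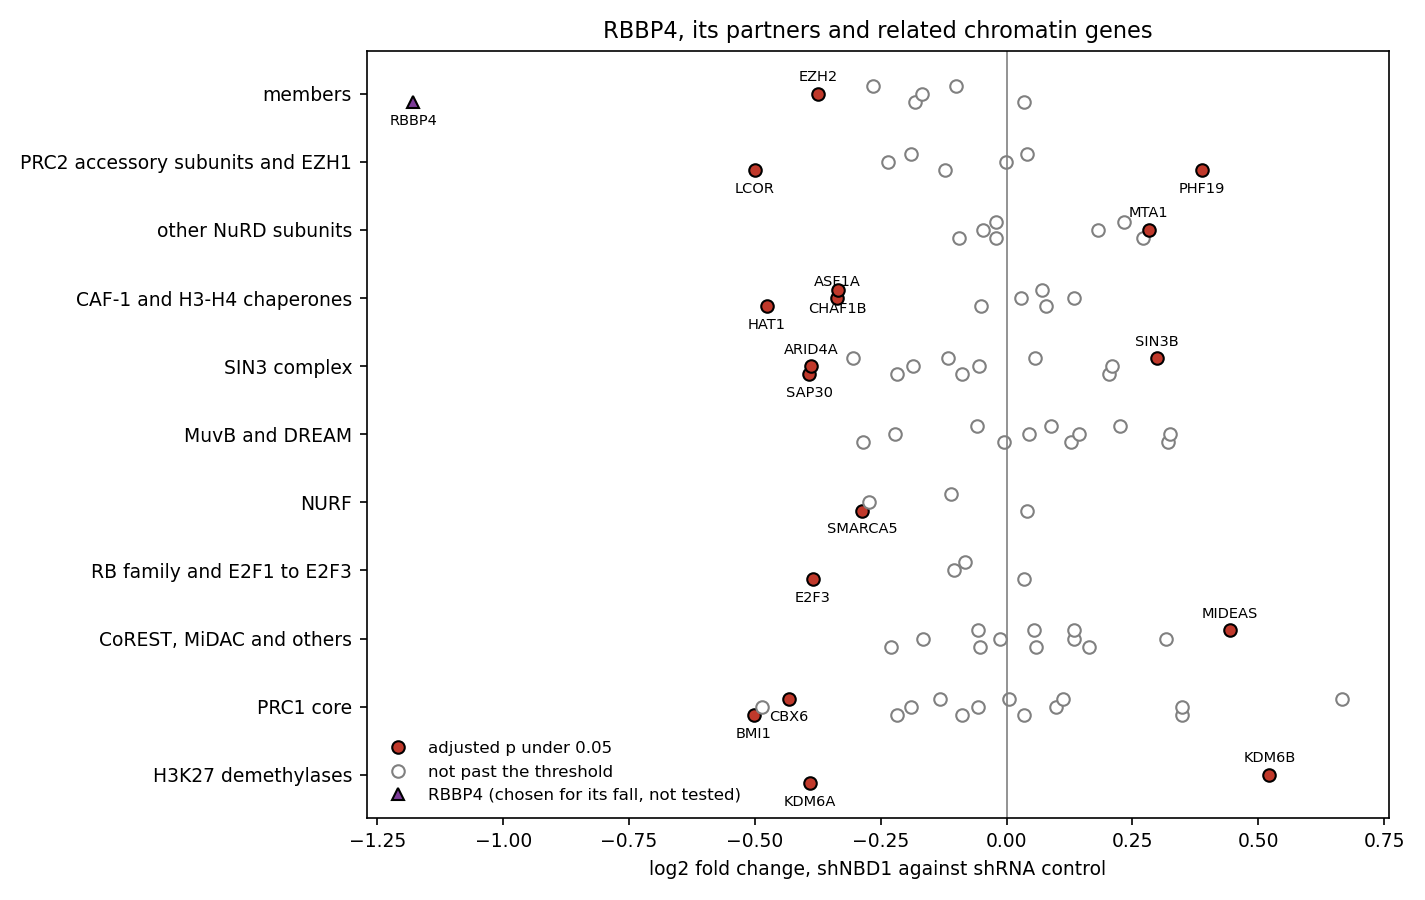
Log2 fold change with shNBD1 for the 7 members (top row) and for tested genes of 10 lists; filled points passed an adjusted p of 0.05 in edgeR, open ones did not and the triangle is RBBP4. RBBP4 lies at -1.18, while the listed genes drawn lie between -0.50 and 0.67.

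With the inhibitors 0 of the 84 listed genes passed (edgeR; 12 with an unadjusted p under 0.05; DESeq2 called 1, a NuRD subunit), with a median of 0.03. Between the controls 12 were higher and 14 lower in the shRNA control, 31% of the 84, beside 27.1% of all genes. Of the named genes that fell with shNBD1, HAT1, CHAF1B, SAP30, ARID4A and BMI1 were called higher in the shRNA control. Of those that rose, PHF19, MTA1 and MIDEAS were called lower there. ASF1A, LCOR, SMARCA5, E2F3, CBX6, KDM6A, KDM6B and SIN3B were not called between the controls. Both comparisons share the shRNA control libraries, so the level of that group enters both.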

How the data were processed

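Ribosome footprints were measured in 8 libraries of 293T cells, 2 in each of 4 groups set by the sample titles. Each file deposited by the authors holds the raw counts of 1 library, as whole numbers per transcript feature. The tools named in the submitters' processing notes are cutadapt and Bowtie, and the build is GRCh38. Tool versions, the counter and the treatment of multiply matching reads were not given in the sources used here. A feature not listed in a file was taken as 0, except members and list genes with no row in any file, which were left out.

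The 18037 features were summed to 17179 symbols. edgeR 4.0.16 in R 4.3.3 was run with filterByExpr (minimum count 10, total 15), TMM scaling and a quasi-likelihood fit of the 4 groups to all 8 libraries (residual degrees of freedom 4), with Benjamini-Hochberg adjustment over 13306 genes. CPM use TMM-scaled library sizes, and SE are those implied by the test. The steps were tested on simulated counts. Alternatives were DESeq2 1.42.0, other scalings, no filter, other samples in the fit, a replicate block and leaving out each library. The members and lists were chosen with earlier results of these data known. Named list genes were up to 4 called per list with the largest change or, with none, the 1 of smallest p. CHAF1A, EZH1 and SMARCA1 were named after their values were seen, and 1 called list gene is counted but neither named, drawn nor otherwise reported here. Levels per coding length and the ratio of HDAC1 to HDAC2 were planned and not analysed here.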

Additional observations from a re-analysis of the deposited data

Results flagged for a closer look

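EED and MTA2 were singled out because all shNBD1 libraries lay below their controls and all inhibitor libraries above theirs. Of all genes tested, 34.3% had both shNBD1 libraries below both controls, and 20.5% had both inhibitor libraries above both of theirs. The share of all genes with both traits was not counted, so the pattern is not read as particular to these genes. The differences between the effects, shNBD1 minus inhibitors, were -0.43 ± 0.15 (SE, log2) for EED and -0.23 ± 0.09 for MTA2, and neither passed edgeR's test of the difference (adjusted p = 0.0964 and 0.167). List genes called with shNBD1 were also looked at. The difference contains that same effect, so their values are a description, no p-value is given and no count of them is read. The 5 shown were picked by an adjusted p under 0.05 for the difference in edgeR. That cut serves here only as a rule of display and not as a test. The difference was -0.42 for ASF1A, with -0.34 for shNBD1 and 0.08 for the inhibitors. It was -0.76 for CBX6, with -0.43 and 0.32, and -0.52 for HAT1, with -0.48 and 0.04. It was -0.72 for LCOR, with -0.50 and 0.22, and -0.40 for SMARCA5, with -0.29 and 0.12. In CBX6, LCOR and SMARCA5 both libraries of each treatment lay on opposite sides of their controls. Groups of 2 libraries are too small for a test of outlying samples.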

How the results depend on the processing

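RBBP4 with shNBD1 ran from -1.21 to -1.17 over 16 alternatives, with -1.208 on total counts alone and -1.174 without the filter on low counts. Leaving out 1 library gave -1.181 to -1.171, and the log2 ratio of RBBP4 to RBBP7 ran from -1.04 to -0.98 with shNBD1 and from -0.04 to 0.04 with the inhibitors. Partners called with shNBD1 numbered 4 on the 4 libraries of the comparison alone, where 41.9% of all genes were called, and 0 to 1 with 1 library left out, where 3.92% to 22.4% were, beside 1 reported. Partners called between the controls numbered 1 to 3 with 1 library left out, where 7.94% to 31.9% of all genes were called. List genes called with shNBD1 numbered 9 with DESeq2, 31 on the 4 libraries alone and 1 to 22 with 1 library left out, beside 17; DESeq2 called 13.8% of all genes, and the other shares are those just given. A fit that leaves a group with 1 library assumes that it varies like the others. Replicate numbers are shared by the labels without a stated link, and replicate differences correlated across genes at 0.04 in the shRNA arm and 0.61 in the inhibitor arm. With the replicate block, partners called with shNBD1 numbered 4, members called with the inhibitors 2 (RBBP4 at adjusted p = 0.00387 and RBBP7 at 0.00338, edgeR), partners called for the difference 3 and list genes 31. With the block 5009 of all genes (37.6%) were called with shNBD1, against 2440 without it, and 2525 (19%) with the inhibitors, against 16 without it, and 25.5% for the difference. DESeq2 called 1697 and 110. Over 46 results of single genes and 715 comparisons with an alternative, 607 kept their side of the threshold and direction, 86 lost a call, 18 gained one, 4 values with no test moved and 0 called values reversed. RBBP4 with shNBD1 is not among these 46. Its value moved by at least its replicate SD in 5 of 16 alternatives, within the range given above.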
